A study of Homo sapiens with 18 samples.

Results

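The 37 genes of the human mitochondrial genome, whose symbols start with MT-, were followed in 18 RNA sequencing libraries of melanoma cells. They were chosen by symbol alone, out of 58051 genes in the deposited table. They comprise 2 rRNA genes, 12 heavy-strand mRNA genes, the light-strand mRNA gene MT-ND6 and 22 tRNA genes, 14 of them on the heavy-strand transcript and 8 on the light-strand transcript. The 2 cell lines, SKMEL2 and SKMEL30, are established human melanoma lines with mutant NRAS. Each had been transduced with the lentiviral tet-ON vector pTRIPZ, which carries Myc-tagged PPP2R3B, a regulatory subunit of the phosphatase PP2A, under a doxycycline-inducible promoter, and was kept as 1 puromycin-selected population. Per line there were 3 libraries from uninduced cells, 3 from cells given doxycycline for 6 hours and 3 from cells given it for 18 hours. All groups carried the vector and no library came from cells given doxycycline without it, so doxycycline and PPP2R3B cannot be told apart.

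Mitochondrial DNA is transcribed from both strands into long precursors. The tRNAs lie between most of the mRNAs and rRNAs and are excised, which frees the mature RNAs, and most mRNAs then receive a poly(A) tail that in several of them completes the stop codon. The heavy-strand precursor holds both rRNAs and all mRNAs but MT-ND6, the only mRNA of the light strand, which is known to lack a stable poly(A) tail. The mRNAs encode core subunits of complex I (ND genes), complex III (CYB), cytochrome c oxidase, which is complex IV (CO genes), and ATP synthase, which is complex V (ATP genes). The libraries were made with a kit that selects poly(A) RNA, so levels here are of RNA captured by that step.

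Total counts ranged from 13402645 to 22383470 per library. PPP2R3B was at 17.4 to 25.5 CPM (here counts scaled to a common library total) in uninduced and 357 to 543 CPM in induced SKMEL2, and at 19.1 to 21.6 and 499 to 594 CPM in SKMEL30. The 7 melanocyte markers summed to 3865 to 4786 CPM in SKMEL2 and 8323 to 8839 CPM in SKMEL30, although TYRP1 alone ran from 3.60 to 1269 CPM. In SKMEL2 this sum was 3865 to 4383 CPM in uninduced cells and 4512 to 4786 CPM at 18 hours, which did not overlap. Of the 3 other lists, the 3 lymphocyte genes summed to at most 2.09 CPM and the 3 fibroblast genes to at most 5.16 CPM. The 3 epithelial genes summed to 3.78 to 14.1 CPM in SKMEL2 and 96.4 to 138 CPM in SKMEL30, where CDH1 and KRT5 reached 123 and 36.3 CPM. In SKMEL30 the epithelial sum was 98.0 to 100.5 CPM in uninduced cells, 96.4 to 138 CPM at 6 hours and 119 to 127 CPM at 18 hours, so that the 18-hour libraries lay above the uninduced ones. Their part in the results was not tested.

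The last 18 bases of the 13 mRNA genes are shown because the ends of these genes abut or overlap their neighbours and because several carry only part of a stop codon. Sequences are DNA-sense letters of the GENCODE transcripts on the GRCh37 lift, and all 37 genes have the same mitochondrial coordinates there as in RefSeq GRCh38.p14. Capitals mark the stop codon, or the part of it that the gene encodes.
MT-ND1: cattccccctcaaaccTA
MT-ND2: ttatactaataatcttaT
MT-CO1: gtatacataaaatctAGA
MT-CO2: cccgtatttaccctaTAG
MT-ATP8: ttgcccccacaatccTAG
MT-ATP6: ctgcacgacaacacaTAA
MT-CO3: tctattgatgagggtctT
MT-ND3: gattagactgaaccgaaT
MT-ND4L: aacctactccaatgcTAA
MT-ND4: ttaccgggttttcctctT
MT-ND5: ctactcctaatcacaTAA
MT-ND6: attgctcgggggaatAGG
MT-CYB: aaatactcaaatgggccT

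Of these genes, 3 pairs share bases. MT-ATP8 and MT-ATP6, which are known to sit on 1 mRNA, share 46 bases at positions 8527 to 8572 of the mitochondrial chromosome. MT-ND4L and MT-ND4, the other such mRNA, share 7 bases at 10760 to 10766, and MT-ATP6 and MT-CO3 share 1 base at 9207. How reads over shared bases were counted was not tested, and MT-ND4L had whole counts in all 18 libraries. Values of MT-ATP8 and MT-ATP6 are in any case not independent, because both genes sit on 1 mRNA. The stretch that MT-ATP8 and MT-ATP6 share is given because both genes changed in SKMEL30, as described with the induced libraries.
MT-ATP8 and MT-ATP6 shared: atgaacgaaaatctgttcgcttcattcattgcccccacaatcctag

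The mitochondrial genes took a similar part of all counts in both lines. In uninduced SKMEL2 they held 6.85%, 6.56% and 9.49% of the counts of the 3 libraries, against 6.73%, 8.76% and 7.14% at 6 hours and 6.76%, 6.42% and 6.89% at 18 hours. In SKMEL30 the shares were 7.02%, 7.17% and 6.80% in uninduced cells, 7.22%, 7.04% and 6.99% at 6 hours, and 7.29%, 7.23% and 7.21% at 18 hours. Uninduced replicate 3 and 6-hour replicate 2 of SKMEL2 stood above the other libraries of that line. The 18-hour libraries of SKMEL30 lay narrowly above its uninduced ones, while all other induced groups overlapped their uninduced group. With bulk RNA, less mitochondrial RNA per cell and fewer cells of a kind that is rich in it cannot be told apart.

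The makeup within the mitochondrial counts differed more between the lines. The rRNAs made up 10.6%, 10.4% and 8.99% of mitochondrial counts in uninduced SKMEL2, and 16.3%, 15.7% and 16.8% in uninduced SKMEL30. In SKMEL30 the rRNA share was 13.6%, 13.1% and 13.5% at 6 hours and 12.7%, 12.2% and 13.2% at 18 hours, which were all below the uninduced libraries. In SKMEL2 it was 9.78%, 9.22% and 12.1% at 6 hours and 9.75%, 9.95% and 9.42% at 18 hours, and both groups overlapped the uninduced libraries. The heavy-strand mRNAs took nearly all of the rest, on average 89.1% ± 0.86 (SD, n = 3) in uninduced SKMEL2 and 82.7% ± 0.57 in uninduced SKMEL30. In SKMEL30 that mean was 85.6% ± 0.25 at 6 hours and 86.4% ± 0.49 at 18 hours. Shares add up to a fixed total, so a lower rRNA share raises the mRNA share by construction.

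**Figure D1:**
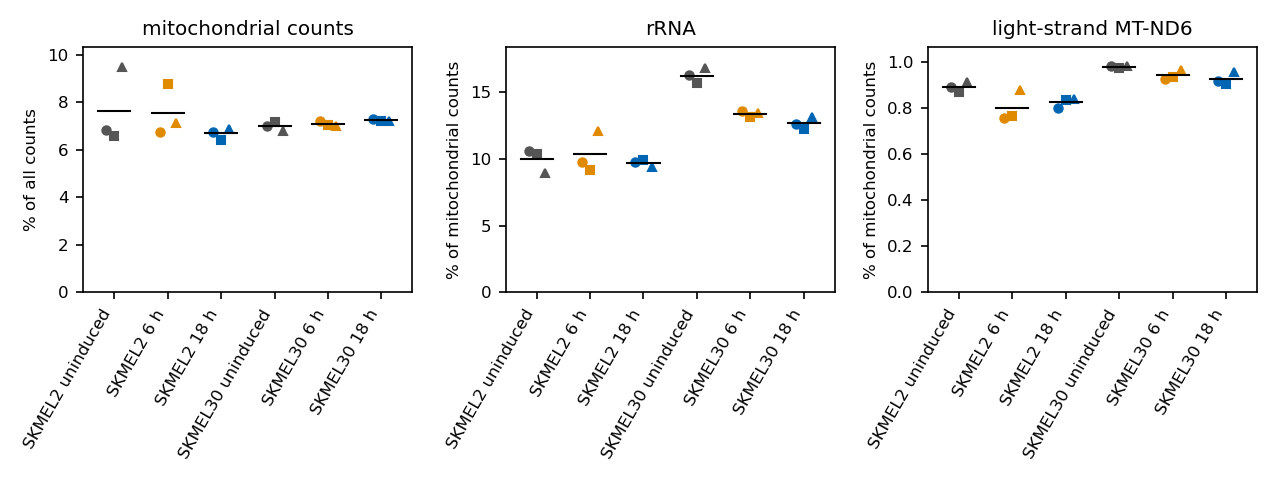
Share of mitochondrial genes in all counts (left), and shares of rRNA (middle) and of the light-strand mRNA MT-ND6 (right) in mitochondrial counts, in percent. Each point is 1 library, marker shapes are replicate numbers, colours are uninduced, 6 hours and 18 hours, and lines are means of 3 libraries. The rRNA share of uninduced SKMEL30 lies at 15.7% to 16.8%, above all induced libraries of that line at 12.2% to 13.6%.

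The light-strand mRNA MT-ND6, which encodes a membrane subunit of complex I, was the smallest mRNA share but for MT-ATP8 in uninduced SKMEL30. It held 0.893%, 0.871% and 0.915% of mitochondrial counts in uninduced SKMEL2, 0.759%, 0.768% and 0.881% at 6 hours and 0.802%, 0.838% and 0.840% at 18 hours. In SKMEL30 its share was 0.986%, 0.974% and 0.984% in uninduced cells, 0.926%, 0.936% and 0.968% at 6 hours, and 0.920%, 0.908% and 0.956% at 18 hours. The induced libraries lay below the uninduced ones at both times in SKMEL30 and at 18 hours in SKMEL2, with an overlap at 6 hours in SKMEL2. Whether the counting used strand is not stated, so reads of MT-ND6 and of RNA antisense to it cannot be told apart.

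Levels of different genes were compared as CPM per kilobase of gene length. That length was the full annotated one, with no correction for fragment length or for shared bases. The effect of this on the shortest genes, MT-ATP8 (207 bases), MT-ND4L (297) and MT-ND3 (346), was not tested. CPM of mitochondrial genes are scaled by TMM, which corrects the library total for composition, unlike those of the nuclear genes. In uninduced SKMEL2 the order of the mean levels ran from MT-ATP6 (11141 CPM per kb) through MT-CO1 (9543), MT-CO2 (8239), MT-ND4 (7729), MT-CO3 (7543), MT-ATP8 (6548), MT-ND2 (5770), MT-CYB (5014), MT-ND4L (3833), MT-RNR2 (3667), MT-ND3 (3411), MT-ND1 (2931), MT-ND5 (1831) and MT-RNR1 (1663) to MT-ND6 (1263). All 14 neighbours in this order overlapped in their 3 libraries. With the counts of nuclear copies added, MT-CO3 stood at 8988 CPM per kb there, ahead of MT-CO2. In uninduced SKMEL30 MT-CO1, the catalytic subunit of cytochrome c oxidase, led with 11154 CPM per kb, and MT-CO3 and MT-CO2, its other mitochondrially encoded subunits, followed with 7919 and 7451. There MT-RNR2, the large rRNA, stood next after MT-ND4 (7418) with 7049 CPM per kb and MT-RNR1, the small rRNA, was last with 847. In this line 10 of the 14 neighbours did not overlap, and the pairs that overlapped were MT-CO2 with MT-ND4, MT-ND4 with MT-RNR2, MT-ATP8 with MT-CYB, and MT-ND3 with MT-ND5.

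Position on the heavy strand did not order the levels. MT-ND1, the first mRNA of the heavy-strand precursor, was at 2931 and 3884 CPM per kb in the uninduced lines, and MT-CYB, the last, at 5014 and 2984. MT-ND5, which lies just before MT-CYB on that transcript and encodes a membrane subunit of complex I, was the lowest heavy-strand mRNA in every group, with group means from 1532 to 2031 CPM per kb. Genes known to sit on 1 mRNA read at unlike levels per length in the uninduced lines. MT-ND4L stood at 3833 and 3534 CPM per kb and MT-ND4 at 7729 and 7418. MT-ATP8 stood at 6548 and 3030 CPM per kb and MT-ATP6 at 11141 and 5432. Gaps of this size thus arose within 1 mRNA, so levels per length of different genes do not give their relative numbers.

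**Figure D2:**
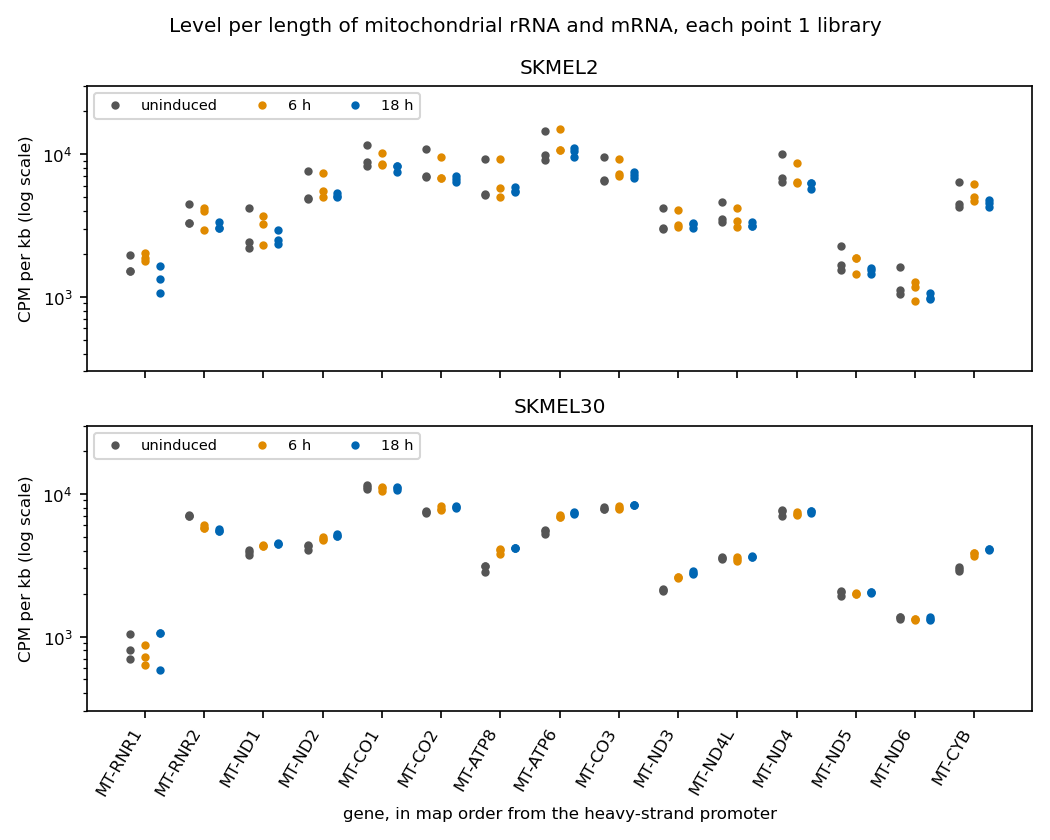
Level of each mitochondrial rRNA and mRNA in CPM per kilobase (log axis), genes in the order in which they lie on the chromosome. Each point is 1 library and colours are uninduced, 6 hours and 18 hours. MT-CO1 leads in SKMEL30 and MT-ATP6 in SKMEL2.

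The tRNAs were almost without counts, at 0.0011% to 0.0051% of mitochondrial counts in each library. The 14 tRNAs of the heavy strand together had 0 to 6 counts per library and the 8 of the light strand 12 to 80. Whether counting used strand is not stated, so light-strand tRNAs and heavy-strand RNA that runs across their genes cannot be told apart. MT-TI, MT-TD, MT-TK and MT-TG had 0 counts in all 18 libraries, which allows up to 3 counts each over the series by counting error. Summed over all libraries, the highest were MT-TS1 with 148 counts, MT-TA with 131, MT-TN with 123 and MT-TE with 73, the light-strand tRNAs for serine, alanine, asparagine and glutamate. The gene of MT-TS1, at 7446 to 7514, begins 1 base after the end of MT-CO1 at 7445 and on the opposite strand, and its sequence is shown because it was the only tRNA that passed the filter on low counts within a line, SKMEL2.
MT-TS1: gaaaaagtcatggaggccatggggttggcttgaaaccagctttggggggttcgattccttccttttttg
MT-TS1 had 13, 17 and 14 counts in uninduced SKMEL2, 7, 8 and 9 at 6 hours, and 16, 20 and 5 at 18 hours. The 6-hour libraries were below the uninduced ones and the 18-hour libraries were on both sides of them. Its log2 fold change in edgeR was -0.62 ± 0.45 (SE) at 6 hours and -0.08 ± 0.41 at 18 hours, with Benjamini-Hochberg adjusted p of 0.989 and 0.994.

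In SKMEL30 7 of the 15 mitochondrial rRNAs and mRNAs changed at 6 hours of induction and 7 at 18 hours. At 6 hours MT-ATP6, MT-ATP8, MT-CYB, MT-ND1, MT-ND2 and MT-ND3 rose and MT-RNR2 fell, and each of these was also called at 18 hours against the same uninduced libraries. A gene is called at an adjusted p under 0.05 in the quasi-likelihood test of edgeR over all genes tested. Among those 15026 genes 31 were called at 6 hours and 44 at 18 hours, which is 0.206% and 0.293%. Genes that rose were 0.0932% of all genes at 6 hours and 0.173% at 18 hours, and genes that fell 0.113% and 0.12%. The calls came from the fit of the 9 SKMEL30 libraries. In a fit of all 18 libraries, which shares the wider spread of SKMEL2, 0 mitochondrial genes were called at either time with fold changes of the same size, and 5 and 9 of 17133 genes were called in all. Replicates of a group are not stated to be separate cultures, so p-values measure the spread between these samples, which may be technical.

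MT-CYB encodes cytochrome b, the only mitochondrially encoded subunit of complex III, at 14747 to 15887. It was at 3414, 3499 and 3303 CPM in uninduced SKMEL30, 4409, 4216 and 4360 at 6 hours, and 4691, 4619 and 4703 at 18 hours. The 3 groups did not overlap, and the 18-hour libraries were the highest. Its log2 fold change was 0.35 ± 0.03 (SE) at 6 hours (edgeR adjusted p = 5.99e-06), and at 18 hours it reached 0.46 ± 0.03 with an adjusted p of 2.67e-07. In the fit of all 18 libraries the value at 18 hours was also 0.46, with an adjusted p of 0.404.

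MT-ATP6, the proton channel subunit of ATP synthase at 8527 to 9207, was at 3729, 3814 and 3554 CPM in uninduced SKMEL30. At 6 hours it was at 4853, 4686 and 4684 CPM and at 18 hours at 5062, 4879 and 4971 CPM. All induced libraries were above the uninduced ones, and those of 18 hours lay above those of 6 hours. The log2 fold changes were 0.36 ± 0.03 (SE) and 0.43 ± 0.03, with adjusted p of 7.03e-06 and 7.01e-07 in edgeR. MT-ATP8, a small subunit of the same complex on the same mRNA, was at 589, 642 and 651 CPM in uninduced SKMEL30, at 842, 856 and 787 at 6 hours, and at 868, 857 and 867 at 18 hours. Its uninduced libraries were all below the induced ones, and it had the largest log2 fold change of the 15 genes at both times, 0.40 ± 0.04 and 0.46 ± 0.04 (edgeR adjusted p = 6.93e-05 and 1.11e-05).

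The complex I subunits split. MT-ND3 was at 721, 736 and 749 CPM in uninduced SKMEL30, at 899, 891 and 902 at 6 hours, and at 957, 951 and 1000 at 18 hours. Again the 3 groups did not overlap, and the log2 fold changes were 0.29 ± 0.03 (SE) and 0.40 ± 0.03 (edgeR adjusted p = 6.93e-05 and 1.41e-06). MT-ND2 was at 4523, 4562 and 4230 CPM in uninduced cells, 5228, 5008 and 4907 at 6 hours, and 5446, 5282 and 5258 at 18 hours. MT-ND1 was at 3723, 3870 and 3545, then 4194, 4112 and 4132, and then 4235, 4279 and 4291 CPM. The induced libraries of both genes lay above all uninduced ones. MT-ND2 rose by 0.18 ± 0.03 on the log2 scale at 6 hours and by 0.26 ± 0.03 at 18 hours (adjusted p = 0.0194 and 0.000558), and MT-ND1 by 0.16 ± 0.03 and 0.20 ± 0.03 (adjusted p = 0.0272 and 0.00272). At 6 hours these 2 calls were the least secure. MT-ND1 was not called without uninduced replicate 1 or without 6-hour replicate 1 or 3 (adjusted p = 0.115, 0.120 and 0.137), and MT-ND2 not without uninduced replicate 1 or 3 or without 6-hour replicate 1 (adjusted p from just over 0.05 to 0.0798). With only the 6 libraries compared in the fit neither was called at 6 hours (adjusted p = 0.103 for MT-ND1 and 0.0639 for MT-ND2), which left 5 calls. The other complex I genes were not called, with log2 fold changes at 6 and 18 hours of -0.01 and 0.03 for MT-ND4L, -0.03 and 0.02 for MT-ND4, -0.02 and 0.0036 for MT-ND5, and -0.04 and -0.03 for MT-ND6.

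None of the 3 cytochrome c oxidase genes was called in SKMEL30. MT-CO1 was at 17261, 17799 and 16539 CPM in uninduced cells, at 17170, 17050 and 16127 at 6 hours, and at 17043, 17263 and 16483 at 18 hours. The groups overlapped, and the log2 fold changes were -0.04 ± 0.03 (SE) and -0.02 ± 0.03 (edgeR adjusted p = 0.852 and 0.866). MT-CO2 was nevertheless higher in all induced libraries, with a log2 fold change of 0.08 ± 0.03 at 6 hours and 0.11 ± 0.03 at 18 hours (adjusted p = 0.554 and 0.134), and MT-CO3 stood at 0.01 ± 0.02 and 0.07 ± 0.02 (adjusted p = 0.966 and 0.250).

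MT-RNR2, the large ribosomal RNA at 1671 to 3229, was the only called gene that fell. It was at 10918, 10985 and 11066 CPM in uninduced SKMEL30, 9462, 9031 and 9024 at 6 hours, and 8619, 8620 and 8881 at 18 hours. The groups did not overlap, and the 18-hour libraries were the lowest. The log2 fold change was -0.26 ± 0.02 (SE) at 6 hours (edgeR adjusted p = 1.57e-05) and -0.34 ± 0.02 at 18 hours (adjusted p = 7.01e-07). MT-RNR1, the small ribosomal RNA, varied widely between replicates, at 992, 665 and 767 CPM in uninduced cells, 828, 605 and 690 at 6 hours, and 1004, 559 and 1016 at 18 hours. Its groups overlapped, and its log2 fold changes were -0.19 ± 0.19 and 0.09 ± 0.19 (adjusted p = 0.895 and 0.933).

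By TMM-scaled CPM alone, 7 of the 15 genes had all 6-hour libraries of SKMEL30 above the uninduced ones and 1, MT-RNR2, had all of them below. Over all genes tested these shares were 5.4% and 5.78%. At 18 hours the numbers were 9 above and 1 below, with 7.75% and 8.19% of all genes, and the 9 were MT-CO2, MT-CO3 and MT-ND4L besides the 6 called genes. Without TMM factors there were 8, since MT-ND4L overlapped, and 6.99% of all genes. The genes that rose did not form 1 block on the heavy strand. In map order MT-ND1 and MT-ND2 were called, MT-CO1 and MT-CO2 were not, MT-ATP8 and MT-ATP6 were, MT-CO3 was not, MT-ND3 was, MT-ND4L, MT-ND4 and MT-ND5 were not, and MT-CYB was. Both genes of the mRNA shared by MT-ATP8 and MT-ATP6 rose and neither gene of the mRNA shared by MT-ND4L and MT-ND4 was called. In the sequences given with the gene ends, 4 of the 6 mRNA genes that rose end in part of a stop codon, as do 2 of the 7 other mRNA genes. These are counts of annotated genes, not of mRNAs. MT-ATP8 and MT-ATP6 enter as separate genes, and the last base of the MT-ATP6 stop codon, at 9207, is also the first base of MT-CO3.

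**Figure D3:**
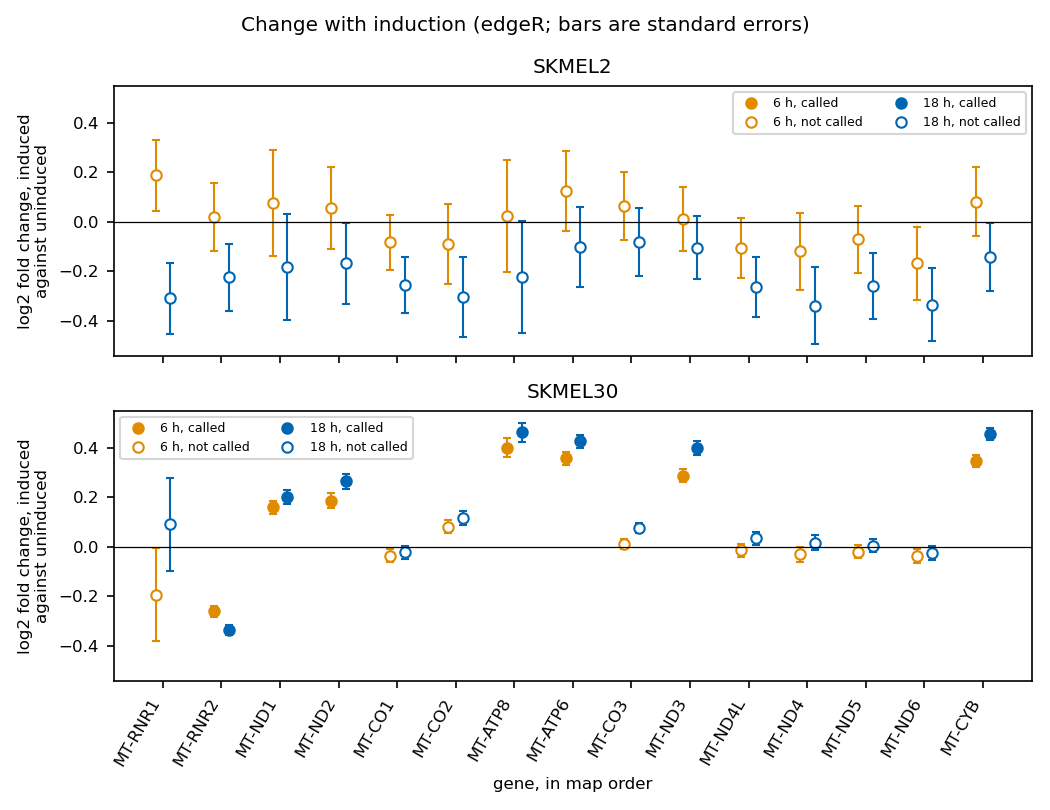
Log2 fold change of each mitochondrial rRNA and mRNA against uninduced cells at 6 and 18 hours, from edgeR fits of the 9 libraries of each line, genes in map order. Filled points are called at an adjusted p under 0.05 and bars are standard errors. SKMEL30 has 7 filled genes at each time, 6 above 0 and MT-RNR2 below, and SKMEL2 has none. Both times share the uninduced libraries of their line.

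Between 6 and 18 hours in SKMEL30, 0 mitochondrial genes were called in edgeR, of 3 genes called among 15026 (0.02%). At an unadjusted p under 0.05 there were 6 of the 15, against 5.56% of all genes, and DESeq2 called 2, against 0.0666% of all genes. MT-CYB was 0.11 ± 0.03 (SE) higher at 18 than at 6 hours on the log2 scale (adjusted p = 0.434) and MT-ND3 0.11 ± 0.03 (adjusted p = 0.528). MT-RNR2 stood at -0.07 ± 0.02 (adjusted p = 0.740), MT-RNR1 at 0.28 ± 0.19 (0.945), MT-ND1 at 0.04 ± 0.03 (0.939), MT-CO1 at 0.01 ± 0.03 (0.997) and MT-ND6 at 0.01 ± 0.03 (0.997).

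In SKMEL2 no mitochondrial gene passed the test after induction. Of 16120 genes 2 were called at each time (0.0124%), and none of the 16 mitochondrial genes tested was among them. At an unadjusted p under 0.05 there were 0 at 6 hours and 3 at 18 hours, MT-ND6, MT-CO1 and MT-ND4L, against 3.37% and 4.65% of all genes. DESeq2 called 0 at both times, against 0.0496% and 0.0558% of all genes. Replicates of SKMEL2 spread more than those of SKMEL30: the coefficient of variation of MT-CYB in CPM was 23.2% in uninduced SKMEL2 and 2.88% in uninduced SKMEL30. Without uninduced replicate 3, or without 6-hour replicate 2, there were still 0 calls.

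MT-CYB was at 5074, 4841 and 7247 CPM in uninduced SKMEL2, 5364, 7063 and 5701 at 6 hours, and 5220, 4891 and 5459 at 18 hours. The groups overlapped, with log2 fold changes of 0.08 ± 0.14 (SE) and -0.14 ± 0.14 (edgeR adjusted p = 0.989 and 0.987). MT-RNR2 was at 5091, 5095 and 6966 CPM in uninduced cells, 4616, 6193 and 6507 at 6 hours, and 4705, 4755 and 5236 at 18 hours, which overlapped as well, and its log2 fold changes were 0.02 ± 0.14 and -0.22 ± 0.14 (adjusted p = 0.997 and 0.987).

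Values of the other named genes in SKMEL2 were of similar size. At 6 and 18 hours the log2 fold changes were 0.19 ± 0.14 (SE) and -0.31 ± 0.14 for MT-RNR1, 0.08 ± 0.21 and -0.18 ± 0.21 for MT-ND1, -0.08 ± 0.11 and -0.25 ± 0.11 for MT-CO1, and -0.17 ± 0.15 and -0.33 ± 0.15 for MT-ND6. All had edgeR adjusted p of 0.987 or 0.989. At 6 hours 9 of the 16 mitochondrial genes tested had a fold change above 0, and at 18 hours 0 did. Their median log2 fold change at 18 hours was -0.22, against -0.00016 over all genes. The uninduced libraries include replicate 3, with 9.49% mitochondrial counts, and the genes as a set were not tested. By CPM alone 3 of the 15 genes, MT-CO1, MT-CO2 and MT-ND4, had all 18-hour libraries below the uninduced ones, where 7.39% of all genes did, and 0 had them above (7.37% of all genes). At 6 hours 0 were below and 0 above, with 3.73% and 3.23% of all genes. Between 18 and 6 hours 0 of 16120 genes were called in edgeR (0%), with 1 mitochondrial gene, MT-RNR1, at an unadjusted p under 0.05 (2.59% of all genes) and 0 called in DESeq2 (0.031%). MT-RNR1 stood at -0.50 ± 0.14 on the log2 scale there (adjusted p = 1.00), MT-RNR2 at -0.24 ± 0.14, MT-ND1 at -0.26 ± 0.21, MT-CO1 at -0.17 ± 0.11, MT-CYB at -0.22 ± 0.14 and MT-ND6 at -0.17 ± 0.15.

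Whether the lines responded differently was tested with an interaction term over all 18 libraries. At 6 hours 0 mitochondrial genes were called, of 0 genes called among 17133 (0%), and at 18 hours 0, of 1 gene called (0.00584%). At an unadjusted p under 0.05 there were 0 and 7 of the 18 tested, against 4.91% and 5.16% of all genes, and DESeq2 called 0 at both times, against 0% and 0.0175%. MT-CYB had the largest difference relative to its error at 18 hours, 0.60 ± 0.16 (SE) higher on the log2 scale in SKMEL30 than in SKMEL2 (adjusted p = 0.732), after 0.27 ± 0.16 at 6 hours (adjusted p = 0.902). For MT-RNR2 the differences were -0.27 ± 0.15 and -0.11 ± 0.15, for MT-RNR1 -0.38 ± 0.27 and 0.40 ± 0.27, for MT-ND1 0.09 ± 0.24 and 0.38 ± 0.24, for MT-CO1 0.05 ± 0.13 and 0.23 ± 0.13, and for MT-ND6 0.14 ± 0.17 and 0.31 ± 0.17. The calls in SKMEL30 and their absence in SKMEL2 are therefore not shown to differ between the lines.

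Shares within the mitochondrial counts do not depend on how the total of a library is scaled. In SKMEL2 the makeup still differed in uninduced replicate 3 and 6-hour replicate 2, which had the highest mitochondrial shares of all counts. Their rRNA shares of mitochondrial counts, 8.99% and 9.22%, were the lowest of that line. In SKMEL30 7 of the 15 genes had a share above all uninduced libraries at 6 hours and 4 a share below, and at 18 hours these numbers were 7 and 4. MT-CYB, for example, held on average 4.69% in uninduced SKMEL30, 5.88% at 6 hours and 6.19% at 18 hours, while MT-RNR2 held 15.2%, 12.5% and 11.5%. In SKMEL2 2 genes, MT-CO3 and MT-CYB, were above and 1 below at 6 hours, and 4 were above and 4 below at 18 hours. The share of MT-CO3 leaves out counts given to its nuclear copy MTCO3P12. That copy took 14.4% to 18.3% of both together in uninduced SKMEL2 and 14.2% to 17.3% at 6 hours. The place of MT-CO3 at 6 hours therefore depends on how reads were divided. Those above at 18 hours were MT-ATP6, MT-CO3, MT-ND3 and MT-CYB, and those below were MT-CO2, MT-ND4, MT-ND5 and MT-ND6. MT-CYB was above at both times in SKMEL2, with 7.73% on average in uninduced cells, 8.22% at 6 hours and 8.14% at 18 hours. The direction of the mean share change was the same in both lines for 11 of the 15 genes at 6 hours and 13 at 18 hours. Across the 15 genes the log2 changes in share had a Pearson correlation between the lines of 0.29 and a Spearman correlation of 0.41 at 6 hours, and 0.59 at both measures at 18 hours. These counts and correlations describe genes of 1 genome whose shares add up to a fixed total, with no test. Such shares are defined only within this genome, so no share over all genes stands beside the counts.

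Ratios within a library were compared for 3 pairs of genes between the 6 induced and the 3 uninduced libraries of a line and between the lines, 9 tests in all, with exact two-sided permutation tests of the mean log2 ratio and Benjamini-Hochberg adjustment over them. MT-ND6 relative to MT-CYB, its neighbour on the opposite strand, was lower after induction in both lines. In SKMEL2 the ratio of counts was 0.115, 0.113 and 0.118 in uninduced libraries, 0.0915, 0.0941 and 0.107 at 6 hours, and 0.0989, 0.104 and 0.102 at 18 hours. In SKMEL30 it was 0.211, 0.207 and 0.210 in uninduced libraries, 0.159, 0.163 and 0.160 at 6 hours, and 0.149, 0.148 and 0.153 at 18 hours. All 6 induced libraries were below the 3 uninduced ones in each line. The mean log2 ratio differed by -0.22 in SKMEL2 and -0.43 in SKMEL30, each with an exact permutation p of 0.0119, the smallest that 6 against 3 libraries allow, and an adjusted p of 0.0179. Beside this, MT-CYB itself was 0.35 and 0.46 higher in SKMEL30 and was not called in SKMEL2, and MT-ND6 was called in neither line.

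MT-CYB relative to MT-ND1, the last against the first mRNA of the heavy strand, was higher after induction in SKMEL30. The ratio there was 0.917, 0.904 and 0.932 in uninduced libraries, 1.05, 1.03 and 1.06 at 6 hours, and 1.11, 1.08 and 1.10 at 18 hours. The induced libraries were all above the uninduced ones, by 0.22 in the mean log2 ratio (exact permutation p = 0.0119, adjusted p = 0.0179). In SKMEL2 the ratio ran from 1.82 to 2.40 in uninduced libraries, from 1.84 to 2.42 at 6 hours and from 1.96 to 2.32 at 18 hours. These overlapped, and the difference was -0.0027 (exact permutation adjusted p = 0.988). The difference between the lines in this change was not tested.

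The ratio of MT-RNR1 to MT-RNR2 sets counts of the small against the large rRNA, which occur in equal numbers in the ribosome. The counts were not corrected for gene length, 954 and 1559 bases, and the libraries select poly(A) RNA. This ratio therefore does not measure the numbers of the 2 rRNAs in ribosomes. The ratio ran from 0.193 to 0.371 in the 9 libraries of SKMEL2 and from 0.0606 to 0.116 in those of SKMEL30. Every library of SKMEL2 was above every library of SKMEL30, and the mean log2 ratio was -1.81 in SKMEL30 minus SKMEL2 (exact permutation p = 4.11e-05, the smallest that 9 against 9 libraries allow, adjusted p = 0.000123). With induction it differed by 0.03 in SKMEL2 and 0.24 in SKMEL30 (exact permutation adjusted p = 0.988 and 0.474). The other 2 ratios also separated the lines at that smallest p, with MT-ND6 to MT-CYB 0.71 higher and MT-CYB to MT-ND1 at -1.04 in SKMEL30 minus SKMEL2 on the log2 scale. Each line is 1 population, and its 9 libraries pool uninduced and induced cells. The p-values between the lines thus measure the spread between these libraries, and differences between lines and between populations cannot be told apart.

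**Figure D4:**
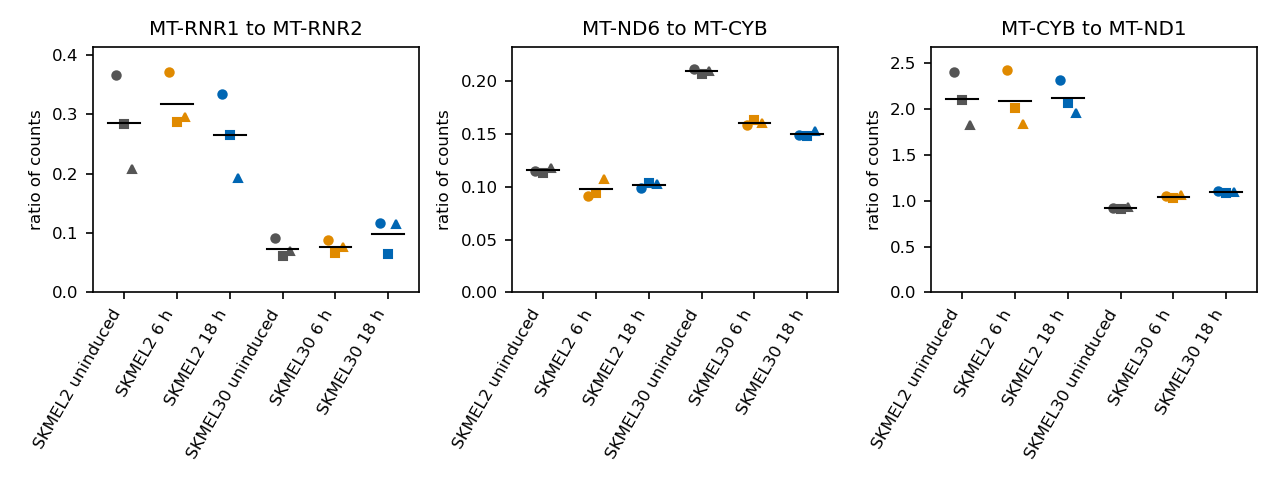
Ratios of counts of 3 pairs of mitochondrial genes in each library, with marker shapes for replicate numbers, colours for uninduced, 6 hours and 18 hours, and lines for means of 3 libraries. MT-ND6 to MT-CYB is lower in all induced libraries of each line, and MT-RNR1 to MT-RNR2 is at 0.193 or more in SKMEL2 and at 0.116 or less in SKMEL30.

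Between the uninduced lines 9 of 18 mitochondrial genes tested were called, 3 higher and 6 lower in SKMEL30, against 75.9% of all 17133 genes, 35.8% higher and 40.1% lower. The comparison shares its uninduced libraries with those of induction, and each line is 1 population, so differences between lines and between populations cannot be told apart. MT-RNR2 was higher in SKMEL30 by 0.94 ± 0.11 (SE) on the log2 scale (edgeR adjusted p = 1.59e-07), MT-ND1 by 0.41 ± 0.17 (0.0395) and MT-CO1 by 0.23 ± 0.09 (0.0313). MT-ATP8 stood at -1.11 ± 0.19 (adjusted p = 2.33e-05), MT-ATP6 at -1.04 ± 0.13 (7.44e-07), MT-RNR1 at -0.97 ± 0.20 (0.000164), MT-CYB at -0.75 ± 0.11 (5.06e-06), MT-ND3 at -0.68 ± 0.10 (7.09e-06) and MT-ND2 at -0.44 ± 0.13 (0.00604). MT-ND6 was not called, at 0.10 ± 0.12 (adjusted p = 0.439). Without uninduced replicate 3 of SKMEL2, 12 genes were called, MT-ND6 was 0.33 higher in SKMEL30 (adjusted p = 0.00132) and MT-ND2 was at -0.19 and not called (adjusted p = 0.0919). Without uninduced replicate 1 or 2 of either line, MT-ND1 and MT-CO1 were not called (adjusted p from 0.0679 to 0.207 for MT-ND1 and from 0.0502 to 0.158 for MT-CO1).

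The nuclear genes that act on mitochondrial RNA and DNA were read beside these values. Of 53 genes for transcription, processing, stability, decay, rRNA maturation and DNA replication, 0 were called at 6 or 18 hours in either line, and at an unadjusted p under 0.05 there were 0 and 3 in SKMEL2 and 5 and 3 in SKMEL30, where 3.37% and 4.65% of all genes in SKMEL2 and 6.44% and 9.14% in SKMEL30 passed that threshold. Between the uninduced lines 45 were called, 26 of them higher and 19 lower in SKMEL30, where 75.9% of all genes were called. POLRMT, the mitochondrial RNA polymerase, had mean levels of 30.9, 33.7 and 32.3 CPM in SKMEL2 and 42.6, 41.9 and 44.4 CPM in SKMEL30, in uninduced cells and at 6 and 18 hours, without TMM factors. TFAM, which packages mitochondrial DNA and activates its promoters, was at 115, 109 and 119 CPM and at 141, 145 and 140 CPM. LRPPRC, which stabilises mitochondrial mRNAs and promotes their polyadenylation, was at 332, 318 and 329 CPM and at 534, 527 and 508 CPM. In all 3 the group means of a line lay close to each other and SKMEL30 was higher. LRPPRC in SKMEL30 was nevertheless lower in all 18-hour libraries, at 498 to 515 CPM, than in the uninduced ones, at 526 to 551 CPM. Without TMM factors 9.06% of all genes lay below in this way.

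Nuclear copies of mitochondrial genes bear on these counts, because reads that align to a gene and its copy were divided between them. The table holds 403 such copies, of which 125 had counts and 5 reached over 100 counts in any library. MTND2P28, MTCO1P12, MTATP6P1 and MTCO3P12 lie in 1 stretch of chromosome 1, from 629640 to 634922 in RefSeq GRCh38.p14, and MTND4P12 lies on chromosome 5, from 134926661 to 134928036. MTCO1P12 and MTND4P12 were named after their values were seen. Over the aligned bases MTATP6P1 was 98.5% identical to MT-ATP6, MTND2P28 98.4% to MT-ND2, MTCO3P12 98.2% to MT-CO3 and MTND4P12 95.7% to MT-ND4.

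MTCO3P12 differed sharply between the lines. In SKMEL2 it took 13.8% to 18.3% of the counts of copy and parent together, 14277 to 37990 counts per library, and in SKMEL30 0.013% to 0.086%, 15.9 to 104 counts. MTND4P12 took 1.18% to 1.46% in SKMEL2 and 0.013% to 0.021% in SKMEL30. MTATP6P1 took 6.79% to 8.48% and 7.40% to 8.02%, and MTND2P28 2.71% to 4.21% and 3.77% to 4.39%, so these 2 overlapped between the lines. MTCO3P12 has 10 bases that differ from MT-CO3 over 547 aligned bases, and 5 of them fall in the 40 bases shown, where capitals mark the differing bases.
MT-CO3: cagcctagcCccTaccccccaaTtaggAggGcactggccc
MTCO3P12: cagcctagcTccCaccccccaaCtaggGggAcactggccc
Counted from 1 at the first base of MT-CO3, with the base of MT-CO3 first, these are C321T, T324C, T334C, A339G and G342A. With the counts of every copy added to its parent before the fit, an alternative chosen after seeing the data, as many genes were called in each comparison as before. MT-CO3, called in neither fit, turned direction between the uninduced lines, from 0.07 ± 0.11 (SE) on the log2 scale to -0.18 ± 0.12 (edgeR adjusted p = 0.569 and 0.181), so its place between the lines depends on how reads were divided with MTCO3P12. For MT-CYB all copies together took at most 0.0080% of the joint counts, and for MT-RNR2 at most 0.0057%.

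**Figure D5:**
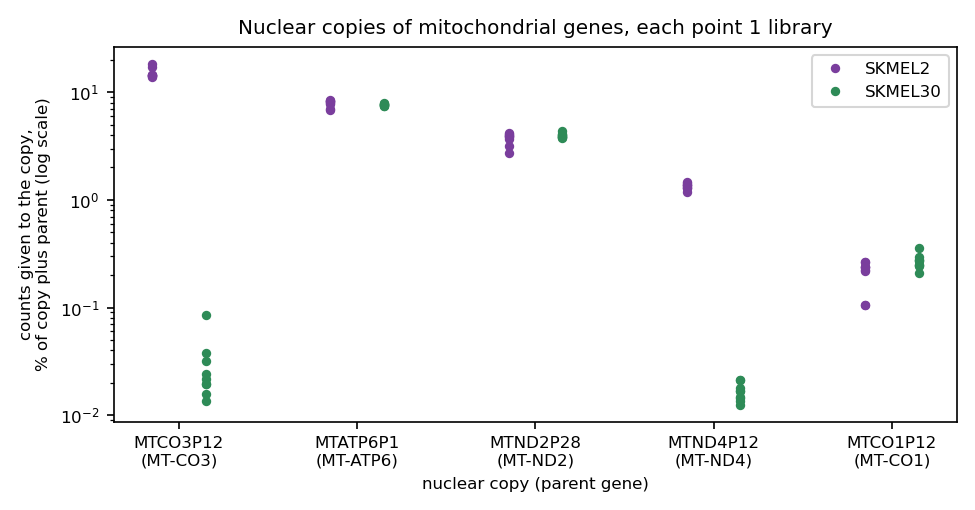
Counts given to the 5 nuclear copies with over 100 counts, as a percentage of copy plus parent (log axis). Each point is 1 library. MTCO3P12 and MTND4P12 lie far apart in SKMEL2 and SKMEL30, and the other copies do not.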

How the data were processed

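RNA was extracted with the Qiagen RNeasy kit, libraries were made with the KAPA mRNA HyperPrep kit, and paired reads of 43 bases were sequenced. Per the labels, reads were trimmed (Trimmomatic 0.36 and cutadapt 1.5 are listed), aligned to GRCh38 with STAR 2.2.2a and counted with RSEM 1.3.0 and SAMtools 1.8. The study's methods give other versions of some of these tools and the annotation of Ensembl release 86. The authors deposited expected counts per gene, with no scaling for library size. Of the values 12.3% were not whole, because RSEM divides reads that align to several genes. Whether counting used strand is not given in the sources used here.

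Gene IDs were matched to symbols for 55604 of 58051 genes. Total counts per library, the depth, were 13402645 to 22383470. The labels give the later time as 18 hours, whereas the study's text gives an earlier hour. CPM of PPP2R3B, the cell type markers and the nuclear genes is the expected count divided by the total of its library and scaled to 1e+06. CPM of the mitochondrial genes is the rounded count divided by the total of the genes tested times the TMM factor of the library, taken from the fit of all 18 libraries, and for counts of groups that do not overlap from the fit of the line. Expected counts were rounded and tested in edgeR 4.0.16 (R 4.3.3) with filterByExpr, TMM, glmQLFit and glmQLFTest, with the 9 libraries of a line in 1 fit for induction and all 18 in 1 fit for interactions and for the uninduced lines, and Benjamini-Hochberg adjustment over all genes tested. Levels and shares were described without a test. Ratios were compared with exact permutation tests.

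Full statistics are given for MT-RNR1, MT-RNR2, MT-ND1, MT-CO1, MT-CYB, MT-ND6 and every other gene called, for POLRMT, TFAM and LRPPRC by level, and for the 3 nuclear copies with the highest mean count. Genes and lists were chosen with earlier results of these data known. Alternatives were DESeq2 1.42.0, RLE factors, scaling on nuclear genes, no filter, at least 10 counts in every library, the replicate number as a block, only the 6 libraries compared, all 18 libraries, each library left out, copies added to their parent and CPM without TMM factors, the last 2 chosen after seeing the data. The steps were tested on simulated data. Intervals and limits cover counting error only.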

Additional observations from a re-analysis of the deposited data

Results flagged for a closer look

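The 6 induced libraries of a line were examined as 1 set for each measure, 44 sets in all, of which chance alone would mark about 2.2, since about 1 set in 20 is marked by chance. A library was singled out where its gap to the nearest other library took up more of the range of the set than Dixon's critical value for 6 libraries. In 14 sets a library was singled out, 11 of them by replicate 2 of the 6-hour group of SKMEL2, and the genes are not independent of each other.

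In that library the mitochondrial share of all counts was 8.76%, against 6.42% to 7.14% in the other 5, with a gap of 0.691 of the range. The gaps were 0.778 for the CPM of MT-ND2, 0.632 for MT-CO1, 0.798 for MT-CO2, 0.804 for MT-ATP8, 0.742 for MT-ATP6, 0.717 for MT-CO3, 0.775 for MT-ND3, 0.704 for MT-ND4L, 0.786 for MT-ND4 and 0.627 for MT-CYB, each with this library the highest. Its MT-CYB, for example, was at 7063 CPM, against 4891 to 5701 CPM in the others.

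Replicate 3 of the 6-hour group of SKMEL2 had an rRNA share of 12.1% of mitochondrial counts, against 9.22% to 9.95% in the others (gap 0.749), and the lowest heavy-strand mRNA share, 87.0% against 89.2% to 90.0% (gap 0.735). In SKMEL30, 6-hour replicate 3 had the lowest MT-ATP8 of the induced libraries, 787 CPM against 842 to 868 (gap 0.678), and still lay above all uninduced libraries.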

How the results depend on the processing

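The 7 calls in SKMEL30 at 6 and at 18 hours fell to 0 and 0 with all 18 libraries in 1 fit, with fold changes of the same direction. Other counts of called mitochondrial genes that moved by over 1.5 times did so without a filter on low counts, which gave 7 in SKMEL2 at 18 hours, 1 and 3 between 18 and 6 hours in SKMEL2 and SKMEL30, and 5 and 12 for the difference between lines at 6 and 18 hours, where the reported count is 0. Without a filter 0.512%, 0.411%, 0.645%, 0.667% and 0.608% of all genes were called in these 5 comparisons. DESeq2 gave 2 in SKMEL30 between 18 and 6 hours. The cause was not tested. With the genes that are not mitochondrial as denominator, the mitochondrial share was 7.17% in SKMEL2 at 18 hours and 7.53%, 7.62% and 7.81% in SKMEL30 uninduced, at 6 and at 18 hours, and with copies added it was 7.31% in SKMEL30 at 18 hours. Against mRNA alone the MT-ND6 share at 18 hours in SKMEL30 was -0.109 percentage points from the uninduced one.

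Leaving out 1 library gave 5 to 7 calls in SKMEL30 at 6 hours, 7 at 18 hours, 7 to 12 between the uninduced lines and 0 elsewhere. Only the 6 libraries compared gave 5 at 6 hours in SKMEL30. The log2 difference between induced and uninduced libraries ran from -0.18 to 0.23 for MT-RNR1 to MT-RNR2 in SKMEL2, from -0.24 to -0.19 and from -0.45 to -0.42 for MT-ND6 to MT-CYB in SKMEL2 and SKMEL30, and from -0.10 to 0.10 and from 0.21 to 0.23 for MT-CYB to MT-ND1. With 2 uninduced libraries the adjusted p of the latter ratios reached 0.0536, since fewer libraries allow no smaller p. Fold changes of uncalled genes that changed sign ran, in SKMEL2 at 6 hours, from -0.087 to 0.18 for MT-RNR2, -0.087 to 0.42 for MT-ND1, -0.17 to 0.074 for MT-CO1, -0.29 to 0.056 for MT-ND6 and -0.040 to 0.29 for MT-CYB, and at 18 hours from -0.35 to 0.16 for MT-ND1 and -0.25 to 0.061 for MT-CYB. In SKMEL30 they ran from -0.047 to 0.32 for MT-RNR1 and -0.049 to 0.0023 for MT-CO1 at 18 hours, and from -0.012 to 0.032 for MT-CO1 and -0.0097 to 0.031 for MT-ND6 between 18 and 6 hours. For the difference between lines at 6 hours the ranges were -0.25 to 0.26 for MT-ND1, -0.11 to 0.14 for MT-CO1 and -0.089 to 0.25 for MT-ND6, and between the uninduced lines -0.0057 to 0.33 for MT-ND6.

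Libraries with the same replicate number correlated by over 0.1 in 3 of 9 pairs in SKMEL2 and 1 of 9 in SKMEL30 (-0.13 to 0.17 and -0.02 to 0.12), so the numbers were not taken to pair them. With the replicate number as a block 7 genes were called at each time in SKMEL30, 0 in the other comparisons of induction and 7 between the uninduced lines, against 9. In SKMEL2 replicate 1 of each group nevertheless had the highest ratio of its group for MT-RNR1 to MT-RNR2 and for MT-CYB to MT-ND1. For MT-CYB to MT-ND1 replicate 3 was also the lowest of each group, so the replicate number ordered these libraries. The permutation tests of the ratios did not use the replicate number. The tRNAs were too low for a comparison at this depth.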
